A study of Mus musculus with 3 samples.

Results

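A set of 43 genes with roles in ribosome biogenesis and the nucleolus was followed in 3 RNA-seq libraries of mouse T-helper 1 (Th1) cells. The genes were taken from a list of symbols, and all 43 were found among the 50600 genes of the count tables. The libraries came from primary cells of strain C57BL/6NJ, differentiated to Th1 cells, with no genotype or drug treatment named. Sex and age were not given, and the headers of the counts name a time point of 2 hours. There is 1 group, so the contrast available was the one between replicates. Each library has its own biosample entry, but all 3 share 1 donor entry, so the p-values below measure the spread between these samples, which may be technical.

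Ribosomes are built in the nucleolus, where RNA polymerase I transcribes the ribosomal RNA precursor. Small nucleolar ribonucleoproteins (snoRNPs) of the box C/D class methylate the precursor and those of the H/ACA class convert uridines to pseudouridine, while assembly factors fold and cut it into the small and large subunits. Activated T cells enlarge their nucleoli and raise ribosome production as they prepare to divide, and the transcription factor MYC, which binds E-boxes, is a known activator of many of these genes.

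The libraries held 4442901, 3123869 and 2950658 counts in replicates 1 to 3, and the 43 genes took 1.04%, 0.75% and 0.798% of them, with 95% Wilson intervals of 1.03% to 1.05%, 0.74% to 0.759% and 0.788% to 0.809% that cover counting error only. Genes with an exon overlapping an exon of the other strand, called opposed here, held 55.1%, 69.1% and 67.3% of all counts. Genes whose span met no gene of the other strand, called unopposed, held 38.7%, 25.6% and 27.8%. Pan T cell markers (6 genes) summed to 2992, 1264 and 1685 TPM (a relative transcript level: counts per base of exon, scaled so that each library sums to the same total), and both CD8 markers to 10.7, 5.90 and 3.97 TPM. Of 5 B cell markers 4 were at 0 in every library, as were 3 of 5 myeloid and both NK cell markers, with summed levels of 27.0 to 48.7 TPM for the B cell list and 5.62 to 8.18 TPM for the myeloid list. Defining Th1 genes were near 0, with Tbx21 at 19, 7 and 11 counts, Ifng at 1, 2 and 0 and Cxcr3 at 6, 2 and 2. Il12rb2, an opposed gene, had 79, 117 and 62. These marker values carry the strand limit stated in the next paragraph.

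Every value here, those of the paragraph above included, holds for strand setting 1 of the deposited counts. It was not established that this setting matched the library. The mitochondrial gene mt-Nd6, which lies on the strand opposite to the other 12 mitochondrial mRNAs, had 28048, 23326 and 36098 TPM, whereas the highest of those 12 had 4122, 2102 and 1754 TPM, and 6 of the 12 had 3 counts or fewer. Had the setting been the reverse of the library's, the counts of a gene would be reads lying on the strand opposite to its RNA. The levels given here, for markers as for the 43 genes, would then not be expression levels.

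All 43 genes reached at least 1 TPM in every library, against 38.7% of 21764 protein-coding genes. The median over the 43 genes was 74.8, 42.0 and 43.2 TPM in replicates 1, 2 and 3, or 53.3 ± 18.6 TPM (SD, n = 3), where the median coding gene had 0.303, 0.252 and 0.201 TPM. The 28 unopposed genes had a median of 41.5 ± 14.8 TPM (SD, n = 3) and the 15 opposed genes one of 74.4 ± 27.4 TPM. By mean level, 34 of the 43 genes lay above the 90th percentile of coding genes, and the lowest, Wdr12, lay at the 70.6th percentile. The counts behind these levels ran from 31 to 11405 per gene and library. A sum over cells cannot tell more cells with an RNA from more of that RNA per cell.

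**Figure D1:**
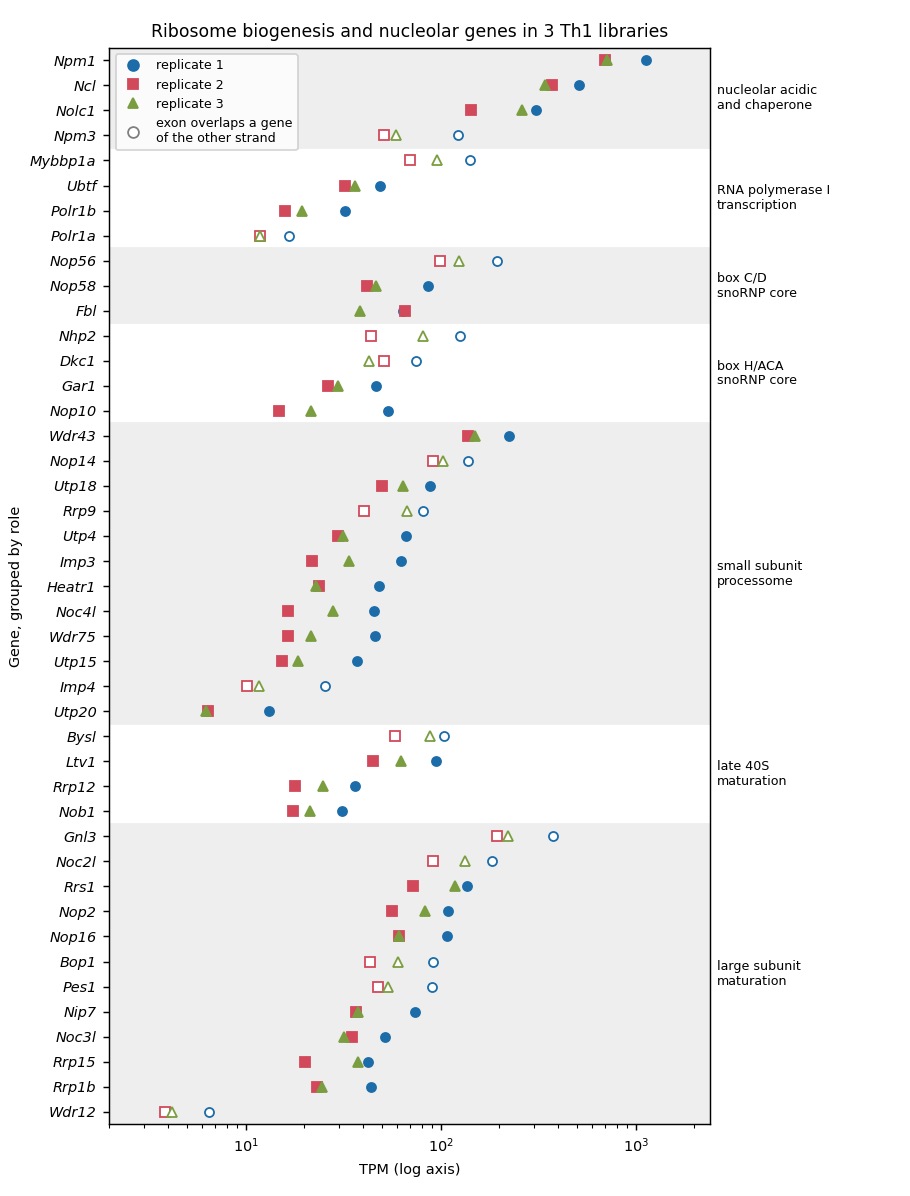
TPM (log axis) of each of the 43 genes, grouped by role, in replicate 1 (blue circles), replicate 2 (red squares) and replicate 3 (green triangles), with open symbols for genes whose exons overlap a gene of the other strand. Npm1 and Ncl stand at the right end, Wdr12 at the left end, and the blue circle is the rightmost symbol for 42 of 43 genes, Fbl being the exception.

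Npm1 and Ncl, of the nucleolar acidic proteins, had the highest levels of the 43 genes. Npm1, encoding nucleophosmin, an abundant chaperone of the granular part of the nucleolus, had 1134, 699.5 and 711 TPM in replicates 1 to 3, a mean of 848 ± 247 TPM (SD, n = 3), from 6613, 3497 and 3218 counts. Ncl, encoding nucleolin, an RNA-binding protein of early ribosomal RNA processing, had 511.5, 371 and 342 TPM (408 ± 90.5 TPM), from 11405, 7090 and 5923 counts. These 2 genes alone supplied 38.9%, 45.2% and 38.8% of the counts of the 43 genes. Nolc1, whose protein binds snoRNPs, followed at 308, 144 and 260 TPM (237 ± 84.5 TPM), so that replicate 2 was well below the other two. Npm3, a relative of nucleophosmin in the nucleoplasmin family, had 123, 51.2 and 59.0 TPM (77.7 ± 39.3 TPM). Per base, Npm1 exceeded Npm3 by a log2 ratio of 3.52 ± 0.29 (SD, n = 3) and Ncl by 1.04 ± 0.12, with the same order in all 3 libraries.

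Among the 4 genes of RNA polymerase I transcription in the set, the regulators had higher levels per exon base than the catalytic subunits. The wider list described below was mixed. Its 14 genes of this role had means from 6.63 to 100.4 TPM. Among them the subunit genes Cd3eap, Polr1d and Polr1e had means of 100.4, 53.5 and 14.5 TPM. The factors Tcof1 and Rrn3 had 70.0 and 18.7 TPM. Mybbp1a, encoding a nucleolar Myb-binding protein that acts on ribosomal RNA synthesis and processing, had 142, 69.4 and 95.9 TPM (102.5 ± 36.9 TPM, SD, n = 3). Ubtf, the upstream binding factor that opens ribosomal DNA for transcription, had 49.1, 32.2 and 36.5 TPM (39.3 ± 8.77 TPM). Polr1b, the second largest subunit of the enzyme, had 32.3, 15.9 and 19.4 TPM (22.5 ± 8.63 TPM). The largest subunit gene, Polr1a, had 16.7, 11.9 and 11.9 TPM (13.5 ± 2.75 TPM), a log2 ratio to Polr1b of -0.69 ± 0.27 with the same sign in each library. In counts Polr1a was the higher, with 433, 265 and 240 over 11871 exon bases against 410, 173 and 191 over 5805.

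Of the box C/D core proteins, Nop56 had the highest level per exon base. Nop56, one of the paired scaffold proteins of the particle, had 196, 99.4 and 125 TPM (140 ± 49.9 TPM, SD, n = 3). Nop58, the other scaffold, had 86.2, 42.0 and 46.7 TPM (58.3 ± 24.3 TPM), and Nop56 exceeded it by a log2 ratio of 1.28 ± 0.12 per exon base. This excess came from exon lengths of 4099 bases for Nop56 and 10758 for Nop58. In counts Nop56 had 1755, 764 and 868 and Nop58 had 2029, 848 and 853. Fbl, the methyltransferase fibrillarin, had 63.8, 65.4 and 38.8 TPM (56.0 ± 14.9 TPM), from 588, 516 and 277 counts. It was the only gene of the 43 with its highest TPM outside replicate 1. Its place in the order depended on the length used: the annotated exons of Fbl together span 4209 bases but its longest coding transcript 1197 bases, and with the latter Fbl moved from rank 23 to rank 6 of the 43, at 171 ± 45.5 TPM. With transcript lengths, 1877 bases for Nop56 and 9507 for Nop58, Nop56 over Nop58 was 2.23 on the log2 scale. Nop58 over Fbl went from 0.02 ± 0.58 to -1.61.

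Of the H/ACA core proteins, Nop10 and Nhp2 had the widest spread relative to their means. Dkc1, the pseudouridine synthase dyskerin, had 74.8, 51.4 and 43.2 TPM (56.5 ± 16.4 TPM, SD, n = 3). Nhp2, a small RNA-binding core protein, had 126, 43.7 and 81.7 TPM (83.9 ± 41.4 TPM). Nop10, the smallest core protein, had 54.0, 14.9 and 21.8 TPM (30.2 ± 20.9 TPM), from 131, 31 and 41 counts. Both were highest in replicate 1 and lowest in replicate 2, by 2.89-fold for Nhp2 and 3.62-fold for Nop10. Gar1, which completes the particle, had 46.4, 26.4 and 29.9 TPM (34.2 ± 10.7 TPM). The ratio of Dkc1 to Gar1 was steady at 0.73 ± 0.22 on the log2 scale, whereas Dkc1 to Nhp2, at -0.48 ± 0.62, changed sign between libraries.

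The 12 genes of the small subunit processome, the large particle that folds the first part of the precursor, spanned a wide range. Wdr43, a WD-repeat protein that joins early, had 225, 138 and 149.6 TPM (171 ± 47.5 TPM, SD, n = 3). Nop14, a partner of Noc4l, had 137, 91.0 and 103 TPM (110.5 ± 24.1 TPM). Utp18 had 87.9, 50.1 and 64.2 TPM and Rrp9, a protein of the U3 snoRNP, had 81.2, 40.5 and 67.3 TPM. The next genes had means of 42.5 TPM or lower. Utp4 had 66.2, 29.7 and 31.7 TPM, Imp3, a U3-associated protein, had 62.8, 21.9 and 33.8 TPM, and Heatr1, a scaffold of the early complex, had 48.3, 23.8 and 23.0 TPM. Noc4l had 45.6, 16.4 and 28.1 TPM, Wdr75 had 46.0, 16.4 and 21.8 TPM, and Utp15 had 37.4, 15.5 and 18.5 TPM. The low end held Imp4, the partner of Imp3 on U3, at 25.5, 10.2 and 11.7 TPM (15.8 ± 8.44 TPM), and Utp20, a very large helical repeat protein, at 13.1, 6.43 and 6.24 TPM (8.60 ± 3.92 TPM). In all 12 genes replicate 1 was highest.

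Of the late small subunit factors, Bysl, an assembly factor, had 105, 58.6 and 87.9 TPM (83.7 ± 23.3 TPM, SD, n = 3) and Ltv1, another assembly factor, had 94.5, 45.1 and 62.5 TPM. Rrp12, an export factor, had 36.4, 18.0 and 25.1 TPM (26.5 ± 9.27 TPM). Nob1, the nuclease that makes the final cut of the small subunit RNA, had 31.2, 17.4 and 21.5 TPM (23.4 ± 7.08 TPM). All 4 ran in the same order, replicate 1, then 3, then 2.

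Among the 12 genes of large subunit maturation, Gnl3, encoding the GTPase nucleostemin, stood highest at 375, 195 and 221 TPM (264 ± 97.2 TPM, SD, n = 3), the third highest of the 43. Noc2l, of the nucleolar complex family, had 184, 91.7 and 133 TPM (136 ± 46.0 TPM), and Rrs1, which takes part in assembling the small RNA of the large subunit, had 136, 72.6 and 119 TPM (109 ± 32.8 TPM). Nop2, an RNA cytosine methyltransferase, had 109, 56.5 and 83.1 TPM, and Nop16 had 107.5, 61.0 and 61.0 TPM. Bop1, Pes1 and Wdr12 form 1 complex that is needed to process the large subunit RNA. Pes1 had 90.8, 48.0 and 53.6 TPM and Bop1 had 91.3, 43.5 and 60.4 TPM, a log2 ratio of -0.01 ± 0.16 (n = 3). Wdr12, the remaining subunit, had 6.46, 3.88 and 4.19 TPM (4.84 ± 1.41 TPM), from 169, 87 and 85 counts. Pes1 thus exceeded it by a log2 ratio of 3.71 ± 0.10, or 13.1-fold per exon base and 11.3-fold with transcript lengths. Both lengths are long for Wdr12, 11955 and 10012 bases, against 3024 and 2923 for Pes1. In counts the gap was smaller, with 601, 272 and 275 for Pes1. The remaining genes lay between these levels, with Nip7 at 73.9, 37.0 and 37.6 TPM, Noc3l at 52.0, 35.3 and 31.8 TPM, Rrp15 at 42.6, 20.1 and 37.6 TPM, and Rrp1b at 44.0, 23.2 and 24.7 TPM.

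The promoters of Nop2, Utp18 and Imp4 are shown because they hold the E-box CACGTG, the site read by MYC, in the 250 bases before the gene start; the capitals mark that motif, which reads the same on both strands. They come from RefSeq promoter sequences on GRCm38.p6, each read 5′ to 3′ on its gene's strand and lying upstream of the gene, chr6:125131796-125131855 (+) for Nop2, chr11:93885767-93885813 (-) for Utp18 and chr1:34439681-34439740 (+) for Imp4.
Nop2: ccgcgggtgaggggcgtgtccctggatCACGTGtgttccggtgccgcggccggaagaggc
Utp18: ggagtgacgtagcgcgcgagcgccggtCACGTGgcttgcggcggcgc
Imp4: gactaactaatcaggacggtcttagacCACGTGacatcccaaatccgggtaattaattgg
The motif began 60, 20 and 121 bases before the start. Of the 38 genes matched in the promoter table, 3 held it, or 7.89%, against 10.5% of 6740 coding genes at 1 TPM or more in every library and 6.86% of all genes in the table. The 3 genes were not alike in level, with means of 83.0 ± 26.4, 67.4 ± 19.1 and 15.8 ± 8.44 TPM (SD, n = 3).

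The genes Ncl, Gnl3, Wdr43, Nop56, Nop58 and Dkc1 carry 19 annotated snoRNA genes on their own strand. Snord69, Snord82 and Snord110 are shown for the boxes that define the C/D class, from GENCODE vM21 on mm10 at chr14:31014287-31014366 (-) in an intron of Gnl3, chr1:86356261-86356330 (-) in an intron of Ncl and chr2:130275506-130275573 (+) in an intron of Nop56. Capitals mark TGATGA, the box C letters searched within the first 25 bases, and the last CTGA, the box D letters, both on the snoRNA strand.
Snord69: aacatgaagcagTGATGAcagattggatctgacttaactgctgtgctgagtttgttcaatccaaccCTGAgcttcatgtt
Snord82: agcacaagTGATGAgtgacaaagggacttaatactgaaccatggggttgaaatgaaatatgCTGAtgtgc
Snord110: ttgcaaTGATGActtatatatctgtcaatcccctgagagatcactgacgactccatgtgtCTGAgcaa
Both boxes were found in 10 of the 19 (52.6%), against 319 of 1507 annotated snoRNAs (21.2%). The 1507 were not split by class, so the shares do not compare like with like. The search took exact letters only, and Snord19, Snord57 and Snord70 lacked TGATGA. A miss therefore does not place a gene outside the C/D class. The snoRNA genes had almost no counts: 12 had none, and the 19 together had 57 counts where the 6 host genes had 39318. They are short, from 68 bases for Snord110 to 133 for Snora75, and the linked protocol is titled for polyadenylated RNA. What part length and library type have in these counts was not tested. Snord69 led with 14, 5 and 2 counts in replicates 1 to 3, followed by Snord19, also in Gnl3, with 8, 1 and 4, and Snord53 in Wdr43 with 7, 4 and 0. Snord110 had 2, 1 and 1, and Snord82 had none in any library, which allows up to 3 counts in each. The 7 snoRNA genes that overlap exons of their host had no counts, and a pair lying on exons of 2 genes of 1 strand counts for neither under the options in the headers.

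Replicate 1 had the highest TPM in 42 of the 43 genes and in 27 of the 28 unopposed ones, a share to be read against 88.6% of 4602 unopposed coding genes. Replicate 2 was lowest in 37 genes and replicate 3 in 6. The ratio of replicate 1 to replicate 2 ran from 0.977 to 3.62 with a median of 2.00, and that of replicate 1 to replicate 3 from 1.13 to 2.48 with a median of 1.57. On the log2 TPM scale the unopposed genes of the set deviated from their own means by medians of 0.53, -0.39 and -0.19 in replicates 1 to 3, and all unopposed coding genes tested by 0.57, -0.35 and -0.19. The medians of the unopposed genes thus lay within 0.05 of those of unopposed coding genes.

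This order depended on the scaling. With trimmed-mean (TMM) scaling, which matches the bulk of genes between libraries, the medians of the unopposed genes of the set became 0.12, -0.15 and -0.02, with replicate 1 highest in 26 of 43 genes, replicate 3 in 12 and replicate 2 in 5 (Ncl, Polr1a, Fbl, Noc3l and Dkc1). On the TMM scale the medians of all unopposed coding genes tested were 0.165, -0.106 and -0.031. How many of all genes were highest in each library was not counted on that scale. The median over all genes tested moved from 0.45, -0.25 and -0.13 on the TPM scale to 0.05, -0.01 and 0.03 with TMM scaling. Replicate 2 was lowest in 19 of the 28 unopposed genes after TMM scaling, against 49.0% of 4221 unopposed coding genes. With totals over unopposed genes alone, the medians were 0.01, -0.01 and -0.04 (log2), and replicates 1, 2 and 3 were highest in 16, 12 and 15 genes.

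**Figure D2:**
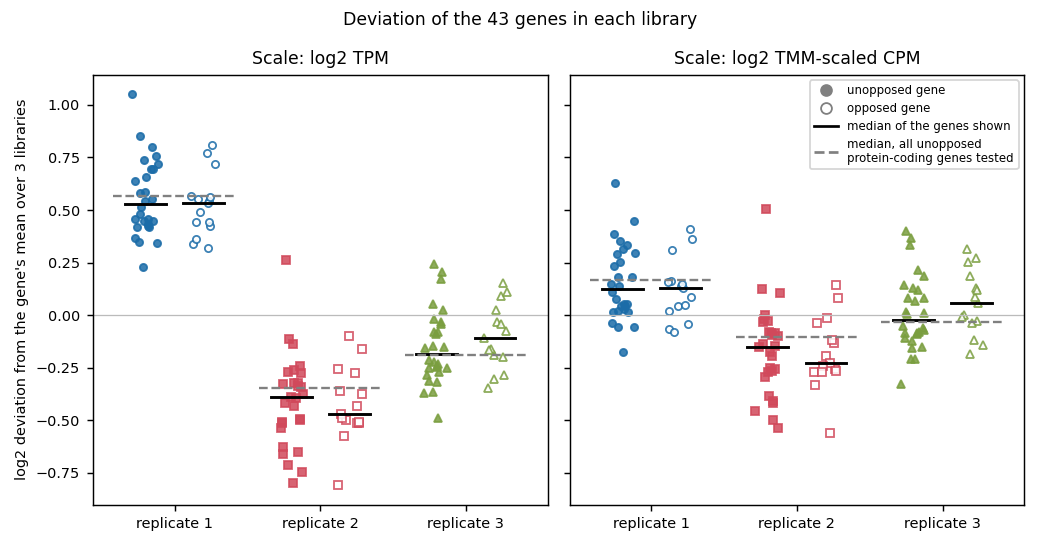
Deviation (log2) of each of the 43 genes from its own mean over 3 libraries, with TPM on the left and TMM-scaled CPM on the right; solid bars are medians of the genes shown and dashed lines medians of all unopposed protein-coding genes tested. On the left the unopposed genes' medians are 0.53, -0.39 and -0.19, and on the right 0.12, -0.15 and -0.02.

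The differences between replicates exceeded counting error for most of the set. A chi-square test of each gene's 3 counts with TMM scaling called 33 of 43 genes at an adjusted p of 0.05 (Benjamini-Hochberg over 9469 genes), where 59.6% of all genes tested were called. The genes of the set also had more counts, a median sum of 951 against 325, and a test of counting error calls more genes as counts grow. In a fit of unopposed genes alone it called 14 of 28, against 36.0% of 4272. Leaving out replicate 1 left 18 calls of 43, against 25.6% of all genes tested, and leaving out replicate 2 also left 18, against 42.4%. Against the spread typical of genes of like abundance, the edgeR dispersion trend, none of the 43 genes was called, none had an unadjusted p under 0.05, and DESeq2 marked no dispersion outlier among them. The trend was fitted to these same 3 libraries, opposed genes included, so the lack of a call does not show that a gene varied little. The test against the trend called 0.253% of all genes (24, with 610 at an unadjusted p under 0.05, and 4 by DESeq2). In the fit of unopposed genes it called 1.29% of genes and none of the set, with 1 gene of the set at an unadjusted p under 0.05, and without replicate 1 none was called, with 2 genes of the set at an unadjusted p under 0.05.

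Nolc1 departed most from counting error (adjusted p = 1.45e-38), with TMM-scaled deviations of 0.04, -0.41 and 0.37 on the log2 scale, low in replicate 2. Rrp15 and Rrp9 had the same shape, with 0.02, -0.42 and 0.40 for Rrp15 (adjusted p = 7.17e-06) and 0.02, -0.33 and 0.31 for Rrp9 (adjusted p = 3.39e-06). These 3 genes were called under every alternative that tested them. Rrs1 and Bysl were highest in replicate 3, at 0.33 and 0.27, with adjusted p of 1.52e-07 and 3.93e-07, but without replicate 3 these were 0.0735 and 0.147. Fbl went the other way, with -0.18, 0.50 and -0.33 (adjusted p = 1.16e-18), so that replicate 2 was the high library. Without replicate 2 its adjusted p was 0.248. Ncl was also highest in replicate 2, by a smaller step of 0.13 (adjusted p = 2.27e-18), and its adjusted p without that library was 0.734.

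The library farthest out was also found for each of the 33 genes, by the gap between its count and the count expected from scaling, in units of counting error. Which library was farthest was not counted over all genes called, so the counts below have no background share. In 13 genes the farthest library was replicate 1, which was high. They were Nop58 (adjusted p = 2.66e-12), Wdr75 (3.5e-10), Imp4 (4.09e-08), Heatr1, Utp4, Gnl3, Nop10, Utp15, Npm3, Nip7, Utp20, Rrp1b and Pes1. Wdr75 deviated by 0.45, -0.38 and -0.06 and Nop10 by 0.63, -0.54 and -0.09 on the TMM log2 scale, and without replicate 1 their adjusted p were 0.103 and 0.327. These groups were formed by the farthest library, so losing a call without that library is largely built in, here and in the paragraph above. The share of all genes called also fell, from 59.6% to 25.6%, without replicate 1. No loss rate was computed over all genes grouped this way. All 13 lost the call without replicate 1, and 7 of the 9 unopposed ones lost it in the fit of unopposed genes. In 12 genes replicate 2 was farthest by this measure and low: Nolc1, Mybbp1a, Noc2l, Nhp2, Nop56, Noc4l, Nop2, Bop1, Ltv1, Imp3, Polr1b and Rrp12. Nhp2 showed it most, at 0.31, -0.56 and 0.25, although its adjusted p without replicate 2 was 0.761, and 11 of the 12, all but Nolc1, lost the call without that library. By the same measure replicate 3 was farthest and high in Rrs1, Bysl, Rrp9 and Rrp15 and farthest and low in Npm1 and Dkc1. Fbl and Ncl were farthest, and high, in replicate 2. The 10 genes not called were Utp18, Nop16, Nop14, Noc3l, Ubtf, Polr1a, Nob1, Wdr43, Gar1 and Wdr12. Their adjusted p in the chi-square test ran from 0.0553 for Utp18 to 0.907 for Wdr12. Of these, 9, all but Polr1a, were called under at least 1 alternative. For Gar1, Nob1, Nop14, Nop16 and Wdr12 the only such alternative was total counts in place of TMM. That setting called 42 of the 43 genes and 75.2% of all genes tested.

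The ratio of replicate 1 to replicate 2 was also set against exon length. Over the 43 genes, which share libraries, Spearman's rho was -0.267, and over the 28 unopposed ones -0.181, against -0.178 over 4602 unopposed coding genes. Without Nop10 and Imp3, the unopposed genes with the shortest exon length, rho over the unopposed genes was 0.02. For the ratio of replicate 1 to replicate 3 the values were 0.06 over the 43 genes, 0.13 over the unopposed ones and 0.34 without Nop10 and Imp3. This is a description across genes, which are not independent replicates.

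For the 15 opposed genes, reads from the bases where exons of both genes lie, 0.12% to 20.9% of the named gene's exon bases, are told apart by strand alone. The ratios below are for the deposited strand setting, and under the reverse setting which gene of a pair is higher could not be read from them. In 6 of them the opposite gene had more counts per exon base, against 60.5% of 2925 opposed coding genes. Imp4 had 477, 163 and 170 counts where Gm28306, an antisense gene at its start, had 2093, 1208 and 1619, a difference of 98.2-fold per base. Npm3 had 319, 114 and 119 counts and the antisense gene Gm15491 had 4782, 5074 and 4708, or 41.7-fold per base. In both pairs the named gene held the smaller part of the counts in every library, with 18.6%, 11.9% and 9.5% for Imp4 and 6.25%, 2.2% and 2.46% for Npm3.

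Pes1 had 601, 272 and 275 counts against 1800, 2596 and 1847 for 4930556J24Rik, 13.5-fold per base. Polr1a had 433, 265 and 240 against 459, 517 and 394 for Gm26628, 10.1-fold per base. Nop14 had 821, 466 and 478 against 1100, 1520 and 1321 for Gm15522, 7.77-fold per base. In these pairs the named gene's share ran from 9.48% for Pes1 in replicate 2 to 48.5% for Polr1a in replicate 1. Noc2l had 1152, 493 and 647 counts against 4672, 3640 and 4852 for Samd11, 4.59-fold per base. In all 6 the named gene's share was highest in replicate 1, as in 12 of the 15 pairs. The same was not counted over all opposed coding genes, so these counts have no background share. Opposed genes as a whole held 55.1%, 69.1% and 67.3% of all counts in replicates 1 to 3.

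The other 9 opposed genes had fewer counts per base opposite them when the libraries were summed. Nhp2 was nearly level with Rmnd5b, which had 352, 339 and 332 counts, a summed ratio of 0.952. Per library the log2 ratio of Rmnd5b to Nhp2 was -0.76, 0.93 and 0.14, so that Rmnd5b was higher in replicates 2 and 3, and without replicate 1 the count of pairs with the higher opposite gene was 7. Nop56 against Idh3b stood at 0.226, Dkc1 against Mpp1 at 0.212, Bysl against Ccnd3 at 0.129 and Rrp9 against Parp3 at 0.106. Bop1 against Mroh1 stood at 0.0939, Wdr12 against Carf at 0.0482, Gnl3 against Glt8d1 at 0.0389 and Mybbp1a against Spns2 at 0.0223. The pairs also differed in how they overlap. In the 6 pairs with the higher opposite gene, 10.8% to 39.5% of that gene's exon bases lay on exons of the named gene (84 to 598 bases), and in the other 9 it was 0.15% to 4.11% (5 to 361 bases). These ranges of percentages did not overlap, but with Nhp2 (2.04%) in the first group, as without replicate 1, they would. The ranges in bases did overlap. The count ratio and the percentage are both divided by the opposite gene's exon length, so a short opposite gene is raised on both. That length was 529 to 3588 bases in the 6 pairs and 2161 to 16533 in the other 9. The same split was not examined over all opposed coding genes. What part the overlap has in the counts was not tested.

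**Figure D3:**
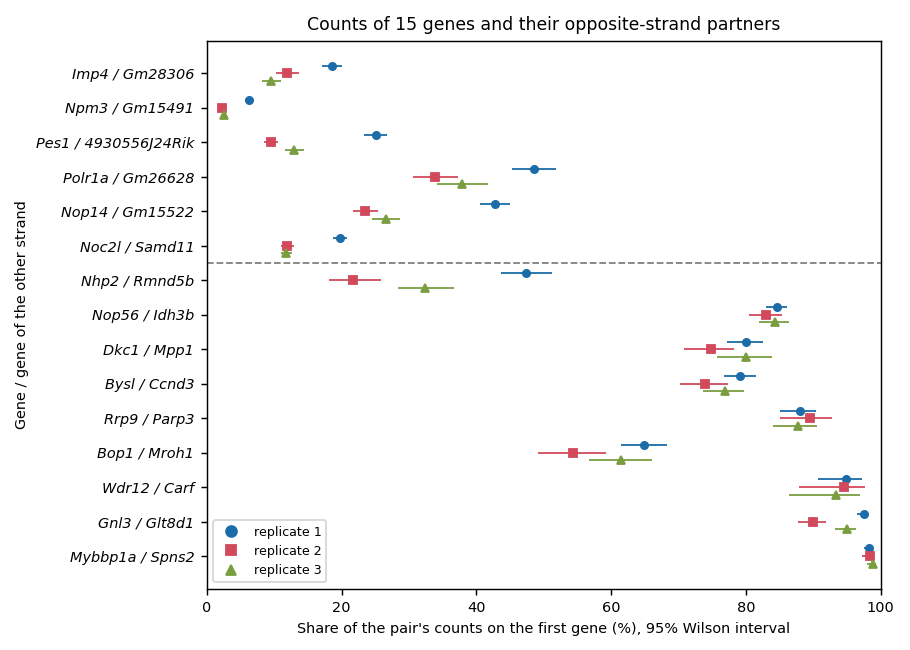
Share (%) of each pair's counts that fell on the named gene, in 3 libraries, with 95% Wilson intervals for counting error, for the 15 opposed genes and their strongest partner on the other strand. Above the dashed line are the 6 pairs whose opposite gene had more counts per base, from Npm3 at 2.2% to Polr1a at 48.5%.

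**Figure D4:**
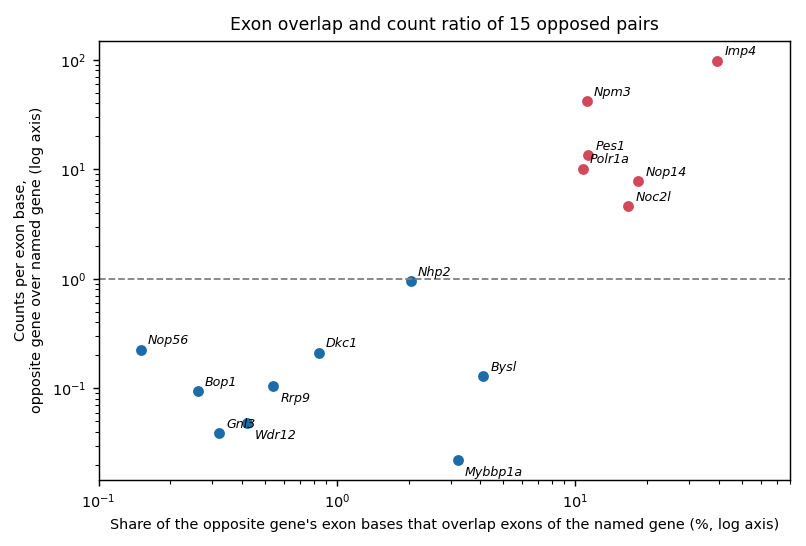
Counts per exon base of the opposite gene over the named gene (log axis) against the share of the opposite gene's exon bases that overlap the named gene (%, log axis), one point for each of 15 pairs, with counts summed over 3 libraries. The 6 points above the dashed line at a ratio of 1 lie at 10.8% or more and the 9 below it at 4.11% or less. Both axes are divided by the opposite gene's exon length, so they are not independent.

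A wider list of 108 other ribosome biogenesis genes, of which 104 were found, showed where the 43 stand in their pathway. At least 1 TPM in every library was reached by 103 of the 104, and their median level was 31.3 ± 11.3 TPM (SD, n = 3). Rsl1d1, a nucleolar protein, led with 356, 182 and 201 TPM, then Rrp1 with 276, 143 and 219 TPM. Trmt112, a partner of several methyltransferases, had 179, 206 and 182 TPM, Mak16 had 236, 145 and 173 TPM, and Krr1, of the processome, had 169, 165 and 219 TPM, and these 3 are opposed. Lowest were Nvl, an ATPase that strips factors from the large subunit, at 7.66, 4.07 and 3.32 TPM, Wdr74 at 7.89, 2.63 and 2.42 TPM and Shq1, the chaperone of dyskerin, at 3.00, 0.837 and 1.18 TPM. Counting error was exceeded by 61 of 103 genes tested (59.2%) and the dispersion trend by none, with none at an unadjusted p under 0.05. Their unopposed members deviated by medians of 0.56, -0.39 and -0.14 on the log2 TPM scale, close to the 43 genes.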

How the data were processed

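Per the file headers, the authors counted read pairs over exons with featureCounts 1.4.6-p4 (both ends mapped, strand setting 1) on GENCODE vM13 gene models, after an alignment step named star2. The deposited files hold raw counts per gene and exon length on mm10. The aligner's version was not given in the sources used here. Total RNA-seq is the assay name in the labels, and the protocol they link to is titled for polyadenylated RNA. Symbols came from GENCODE vM21 by gene ID, matching 50376 of 50600 genes (99.6%). TPM was computed here from counts and exon length over all genes. Deviations are log2(TPM + 0.1) minus a gene's mean over 3 libraries. Tests used R 4.3.3 with edgeR 4.0.16 (TMM scaling, filterByExpr at a minimum count of 10) and the alternative DESeq2 1.42.0, adjusted over all genes tested. The tests were also run on simulated data drawn from the fit to these same libraries. Such data meet the tests' own assumptions, so that run cannot show that the assumptions hold here. Every one of the 43 genes passed the filter. Depth was 2950658 to 4442901 counts per library. Python 3.11.15 did the rest.

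The genes and lists were chosen with earlier results of these data known. Named were the 10 highest and 8 lowest genes, those past either test, all opposed genes, the snoRNA hosts, and of the wider list the 5 highest and 3 lowest. Alternatives were other scalings, filters, pseudocounts, lengths, unopposed genes alone and leaving out each library. Promoter sequences for 5 of the 43 genes (Npm1, Rrs1, Bop1, Fbl and Rrp12) were not used here.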

Additional observations from a re-analysis of the deposited data

How the results depend on the processing

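The count of genes beyond counting error was 33 (59.6% of all genes tested), and 14 of 28 with unopposed genes alone (36.0%), where the same 28 had 21 calls in the fit of all genes. Without 1 library it ranged from 18 to 27, against 25.6%, 42.4% and 47.3% of all genes without replicates 1, 2 and 3. With DESeq2 size factors it was 30 (57.3%), with no filter 34 (35.7%) and with total counts 42 (75.2%). At 1 TPM or more stood 43 genes, or 28 of 28 with unopposed genes only. The median of 53.3 TPM was 204 TPM for unopposed genes with totals over unopposed genes, and 94.7 as CPM; without 1 library it ranged from 42.6 to 59.0 TPM, and with the longest coding transcript, an alternative chosen after seeing the data, it was 59.0 TPM. The median deviation in replicate 1 was 0.53, and 0.006 (log2) with unopposed totals. The count of 6 higher opposite genes stayed at 6 to 7, and none of these results reversed. Requiring a 0.5 share of the opposite exons to overlap gave no value, since no pair reached it. No paired analysis was possible because there is 1 group. Depth limits the lowest genes: Nop10 had 31 counts in replicate 2. In the fit of unopposed genes the TMM factor of replicate 1 also moved, from 1.18 to 1.03. The cause of these changes was not tested.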
